A study of Rattus norvegicus with 24 samples.

Results

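A set of 9 macrophage genes was followed in the thyroid glands of young rats: Csf1r, Cd163, Mrc1, Cd68, C1qa, C1qb, C1qc, Aif1 and Cd209f. They were picked by symbol, as the non-control probes whose gene name in the scanner files equals one of these symbols. That rule found 10 probes of 8 genes. Cd209f was absent under its own name, and the probe labelled Cd209g on the array was assigned to it through its RefSeq accession, which made 11 probes of 9 genes among 30367 non-control probes. All 11 probes passed the filter on dim signals, and 1 probe per gene entered a fit over 20278 genes. Csf1r and Aif1 have a second probe, which is given beside the first.

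The glands came from RccHan Wistar pups killed at postnatal day 35 ± 3. The acrylamide pups were born to dams given 3 mg of acrylamide per kg body weight per day in the drinking water from gestational day 6, and stayed on that dose until they were killed, while the control pups and their dams had tap water. The 6 groups, with 4 single-colour expression arrays each, were acrylamide and control females at night (10 PM), acrylamide and control males at night, and acrylamide and control females in the morning (10 AM). Acrylamide is an electrophile that reacts with protein thiols, and the study asked which genes move with hormone changes at this low chronic dose. The labels do not say which animal gave which replicate, so the tests rest on a spread between arrays that may be in part technical. Whole glands were used, so that fewer macrophages, less RNA per macrophage and a different share of other tissues in the sample cannot be told apart.

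Macrophages are phagocytes that live in nearly every tissue, where they clear dead cells, sense damage and present antigen. Their survival depends on the receptor encoded by Csf1r, which binds the growth factors encoded by Csf1 and Il34. Tissue macrophages carry scavenger receptors, among them Cd163, which takes up haemoglobin bound to haptoglobin, Mrc1, the mannose receptor, and Cd68, a lysosomal glycoprotein. They are also a main source of C1q, the recognition molecule of the classical complement pathway, which is assembled from the chains encoded by C1qa, C1qb and C1qc. Aif1 encodes a calcium-binding protein that bundles actin in moving macrophages and microglia. Cd209f belongs to a family of C-type lectins related to human DC-SIGN, and in mice it is used as a marker of some resident tissue macrophages.

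The probes of the C1q chains lay close together on the minus strand of chromosome 5 of the rn4 rat build, with C1qb at chr5:155647530-155647589, C1qc at chr5:155656638-155656697 and C1qa at chr5:155662578-155662637. Each is 60 bases long. The probes of C1qa and C1qc are shown because these chains had the closest fit to the member mean and the largest change between control groups:
C1qa probe: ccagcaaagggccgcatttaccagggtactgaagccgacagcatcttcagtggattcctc
C1qc probe: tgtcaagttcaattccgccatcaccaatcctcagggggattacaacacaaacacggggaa
The Csf1r probes are shown because they read different parts of the transcript and gave different results. The first (A_64_P351634) lies at chr18:57093036-57093095 and the second (A_44_P257582) at chr18:57105231-57105932, both on the plus strand, and the second spreads its 60 bases over 702 bases of genome, so it crosses an intron. In the transcript they start at position 1349 and position 2663.
Csf1r first probe: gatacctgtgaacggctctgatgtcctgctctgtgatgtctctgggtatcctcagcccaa
Csf1r second probe: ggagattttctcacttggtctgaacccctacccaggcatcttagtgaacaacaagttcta

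Promoter sequence (RefSeq, GRCr8 build) was matched by symbol for 7 of the 9 genes. GAGGAA is a sequence bound by the macrophage transcription factor encoded by Spi1, and it or its reverse complement TTCCTC was searched from 250 bases before to 50 bases after each start. A match was found in 4 of the 7 (Csf1r, Mrc1, Cd68 and C1qb), against 27.6% of 33469 promoters of the same length. The 250 bases before the start of C1qb and C1qa are printed on the minus strand, since these chains moved most closely together and yet differ in this respect. Capitals mark the matches, which begin 247 and 90 bases before the start of C1qb.
C1qb promoter, chr5:154407828-154408077: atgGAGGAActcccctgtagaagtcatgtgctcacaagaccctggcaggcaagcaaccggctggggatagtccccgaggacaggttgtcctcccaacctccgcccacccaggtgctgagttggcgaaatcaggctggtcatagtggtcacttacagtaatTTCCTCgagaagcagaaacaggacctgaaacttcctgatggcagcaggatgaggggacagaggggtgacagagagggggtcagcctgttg
C1qa promoter, chr5:154419934-154420183: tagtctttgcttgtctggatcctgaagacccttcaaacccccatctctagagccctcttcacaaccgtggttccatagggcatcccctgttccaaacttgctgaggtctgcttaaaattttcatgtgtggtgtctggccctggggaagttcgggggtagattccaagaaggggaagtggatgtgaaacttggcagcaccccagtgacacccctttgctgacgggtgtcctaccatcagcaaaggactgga
A match is a description of the letters and shows no binding.

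On each array 71.5% to 82.3% of the spots stood well above background, and the median SD over all genes was 0.18 to 0.25 log2 in the control groups and 0.23 to 0.45 in the acrylamide groups. Some arrays stood apart before any comparison was made. Thyroglobulin (Tg), the defining product of thyroid follicles, was at -1.19 in replicate 1 of the acrylamide females in the morning and between 6.07 and 8.82 on the other 23 arrays, on the log2 scale used throughout, where 0 is an array's 75th percentile. In that group, replicate 2 had a T cell list mean of 0.84, against -5.83 to -1.15 on the other arrays. The muscle actin gene Acta1 was at -0.71 in acrylamide replicate 2 of males at night, where the control males had 6.15 to 7.69. Replicate 4 of that group was low in parathyroid genes, and acrylamide replicates 1 and 3 of the morning females were high in genes of oesophageal epithelium. The Y-linked gene Ube1y1 went against the labelled sex on 2 arrays. Its probe was at -7.09 and not well above background in acrylamide replicate 4 of males at night, while the other 7 male arrays had -4.61 to -3.78. It was at -4.96 and well above background in control replicate 4 of females in the morning, while the other 15 female arrays had -9.41 to -7.48. These arrays were kept, and results that rest on them are also given without them. Night females, night males and morning females were on different slides, and on the night slides the controls filled row 1 and the acrylamide arrays row 2, so that row and treatment cannot be told apart there.

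Every member was well above background on all 24 arrays, except for Mrc1, which was so on 2 of the 4 control arrays in the morning. No member probe was saturated. Macrophage transcripts were thus measured in glands of every group, and the differences below are between levels that were read and not against an absent signal. A level cannot be compared between probes, and the order of the groups is therefore given gene by gene. The plot of levels by array shows all 11 probes.

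**Figure D1:**
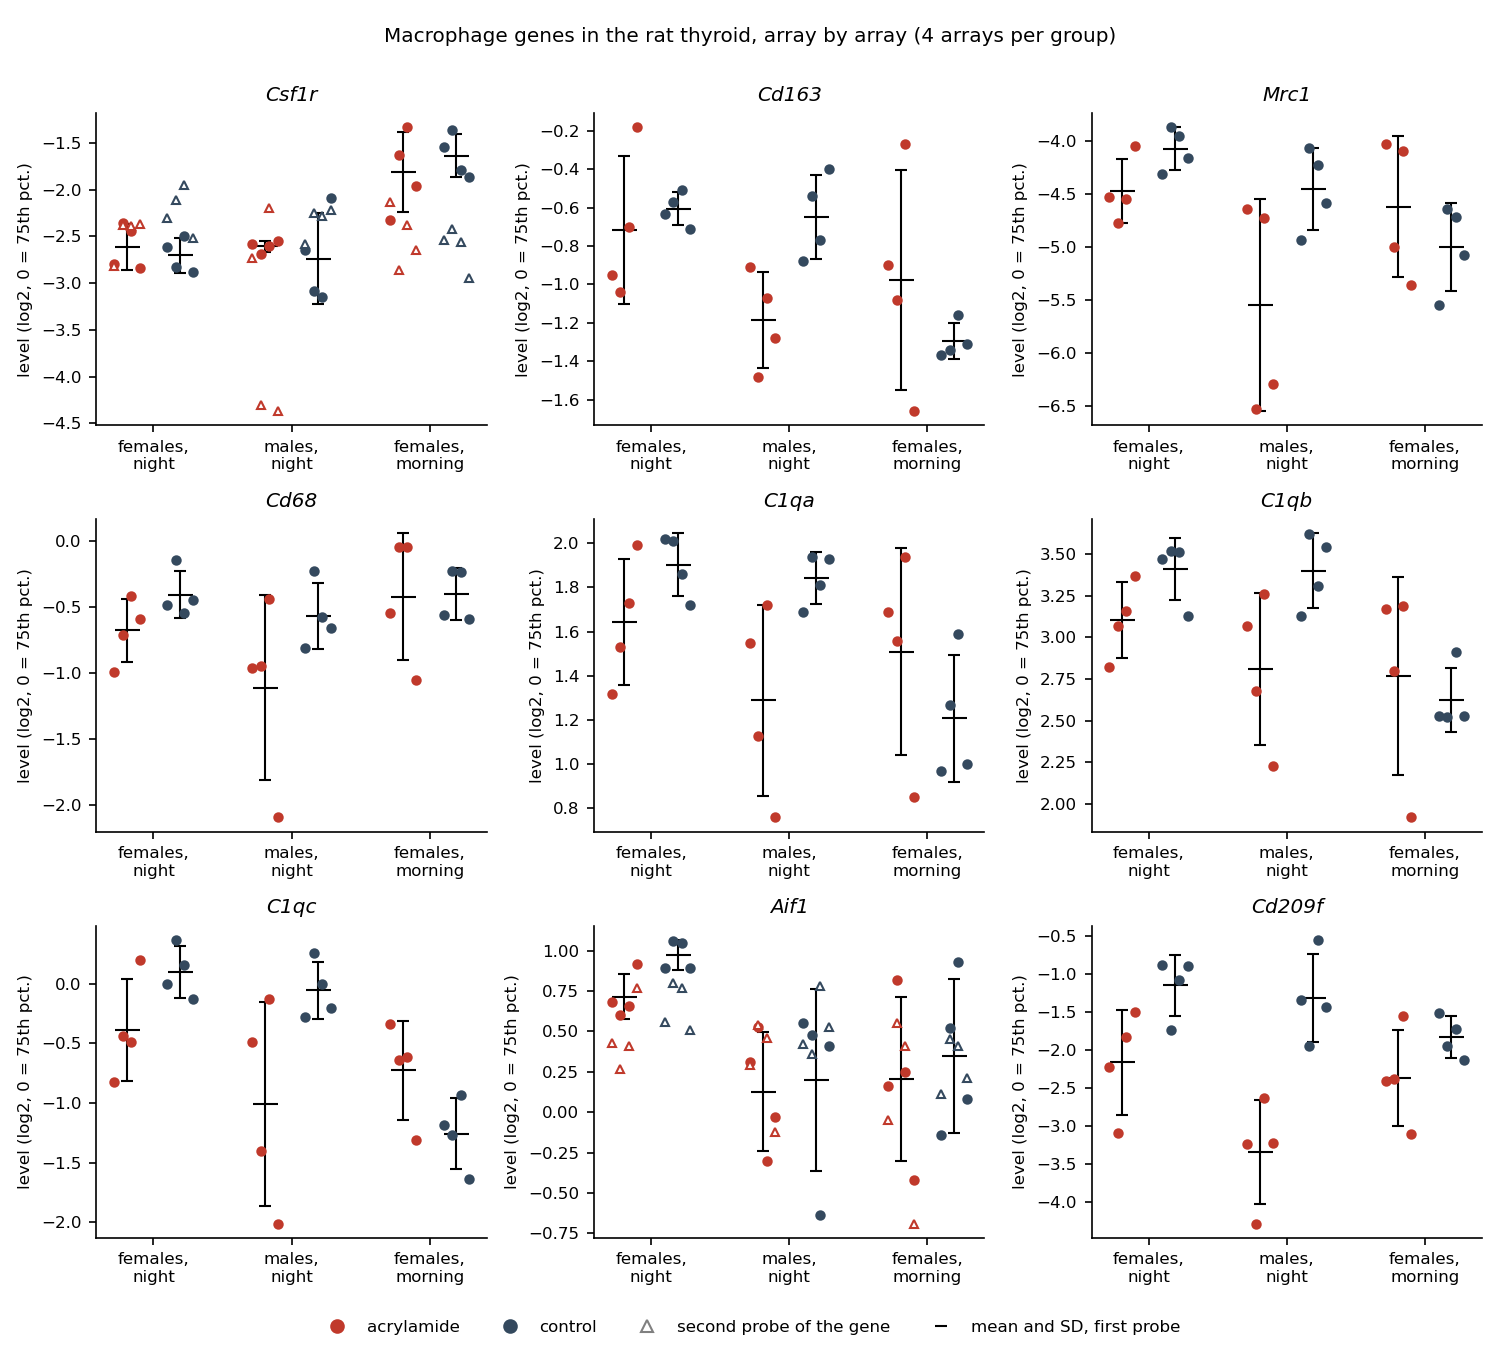
Level of each macrophage gene on each array (y axis, log2, 0 is the array's 75th percentile), by sex and time along the x axis, with acrylamide arrays in red to the left of control arrays in blue. Filled circles are the first probe and open triangles the second probe of Csf1r and Aif1, bars are the mean and SD of the first probe (n = 4). Cd209f was below all control males in the 4 acrylamide males at night, and acrylamide replicates 2 and 4 were the lowest of that group for Mrc1, C1qc and the second Csf1r probe.

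In males at night, 8 of the 9 members had a lower mean with acrylamide than with tap water and none passed the test (0 of 20278 genes passed, a percentage of 0 in either direction). The median difference of the members was -0.55 log2, where that of all genes was -0.05. Among all genes 55.6% were negative. Among the members 6 of 9 had an unadjusted p under 0.05, as had 13.3% of all genes. The adjusted p of limma ran from 0.123 to 0.921 over the members.

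Cd209f, the lectin, had the largest difference. It was at -3.24, -4.29, -2.64 and -3.23 in acrylamide males at night, against -1.34, -1.95, -0.55 and -1.44 in control males. The groups did not overlap: the highest acrylamide array lay below the lowest control array. Lack of overlap in the lower direction was seen for 1.54% of all genes and for 2 of the 9 members. The difference of -2.03 log2 (SE 0.38) is a 4.08-fold lower signal, was at rank 5 of 20278 genes by p, and had an adjusted p of 0.123 in limma. It was -1.72 (adjusted p 0.527) without acrylamide replicate 2 and -2.27 (adjusted p 0.0443) without acrylamide replicate 3, and no other array left out took the adjusted p under 0.05. Without acrylamide replicate 4, the array that went against its labelled sex, it was -2.07 (adjusted p 0.366). This gene has a single spot on the array, and its name rests on 1 accession. Its probe lies on the minus strand of chromosome 12 in rn4, while the promoter matched to Cd209f lies on the plus strand in GRCr8. The cause of this mismatch was not tested.

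The scavenger receptors had smaller differences. Cd163 was at -0.91, -1.48, -1.07 and -1.28 in acrylamide males at night and at -0.88, -0.54, -0.77 and -0.40 in control males. It was the other member without overlap, by a narrow gap, and its difference was -0.54 (SE 0.22, adjusted p 0.371). Mrc1 was at -4.64, -6.53, -4.73 and -6.29 in acrylamide males, against -4.93, -4.07, -4.23 and -4.59 in control males. Here replicates 2 and 4 with acrylamide were far below every control while replicates 1 and 3 were within the control range. The difference of Mrc1 was -1.09 (SE 0.38, adjusted p 0.371), and it was -0.77 without acrylamide replicate 2 and -0.85 without acrylamide replicate 4. For Cd68 the values were -0.96, -0.95, -0.44 and -2.09 in acrylamide males and -0.81, -0.23, -0.58 and -0.66 in control males, and the difference of -0.54 (SE 0.27, adjusted p 0.384) became -0.21 without replicate 4.

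The C1q chains ran in parallel. C1qc was at -0.49, -1.40, -0.13 and -2.01 in acrylamide males at night, against -0.28, 0.26, 0.00 and -0.20 in control males. C1qa was at 1.55, 1.13, 1.72 and 0.76 with acrylamide and at 1.69, 1.94, 1.81 and 1.93 in controls. C1qb was at 3.07, 2.68, 3.26 and 2.23 with acrylamide and at 3.13, 3.62, 3.31 and 3.54 in controls. For each chain replicate 4 with acrylamide was lowest and replicate 2 next, and replicate 3 with acrylamide was within the control range. The differences were -0.95 (SE 0.31) for C1qc, -0.55 (SE 0.22) for C1qa and -0.58 (SE 0.24) for C1qb, each with an adjusted p of 0.371 in limma. Without acrylamide replicate 4, which went against its labelled sex, they were -0.62 for C1qc, -0.37 for C1qa and -0.39 for C1qb, each with an adjusted p of 0.866.

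Csf1r gave opposite signs with its probes. The first was at -2.58, -2.69, -2.60 and -2.55 in acrylamide males and at -2.64, -3.08, -3.15 and -2.09 in control males, a difference of 0.14 (SE 0.22, adjusted p 0.79). The second was at -2.73, -4.30, -2.19 and -4.37 in acrylamide males and at -2.58, -2.25, -2.28 and -2.22 in control males, a difference of -1.06 (SE 0.34, adjusted p 0.367). Only the second probe showed the low values of replicates 2 and 4 seen for Mrc1 and C1qc. Aif1 differed by -0.07 (SE 0.28) with the first probe and by -0.23 (SE 0.21) with the second.

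Of the 9 members, the number below all control males was 6, 7, 2 and 7 on acrylamide replicates 1 to 4. The share over all genes was not computed for such counts on single arrays. On the same arrays the mean deviation of the members from the control mean was -0.39, -0.96, -0.29 and -1.13 log2. Replicates 2 and 4 therefore carried most of the difference. Skeletal muscle genes moved with them in part: the mean of the 12 muscle genes was 6.78, 0.88, 6.02 and 4.5 in the acrylamide males, against 6.97, 6.08, 5.96 and 7.27 in the control males, and all 12 genes had a negative difference (median -1.82, 0 passed). All 8 fat genes (median -0.47) and all 7 fibroblast genes (median -0.25) were negative too. Some lists went the other way, among them follicular genes (10 of 12 positive, median 0.34) and T cell genes (6 of 8 positive, median 0.68). Replicate 4 with acrylamide, which had the lowest members, had a parathyroid list mean of -1.56, against 3.43 to 3.98 on the other acrylamide males and 3.35 to 4.13 in control males. The part of these tissues in the members' differences was not tested. With the muscle and fat list means as covariates the median difference of the members was -0.30 and that of Cd209f was -1.48 (adjusted p 0.549 in limma). The median was -0.39 without acrylamide replicate 4 and -0.54 without acrylamide replicate 2, with 8 of 9 members negative in both cases. The panels of member and muscle means by array show these arrays side by side.

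**Figure D2:**
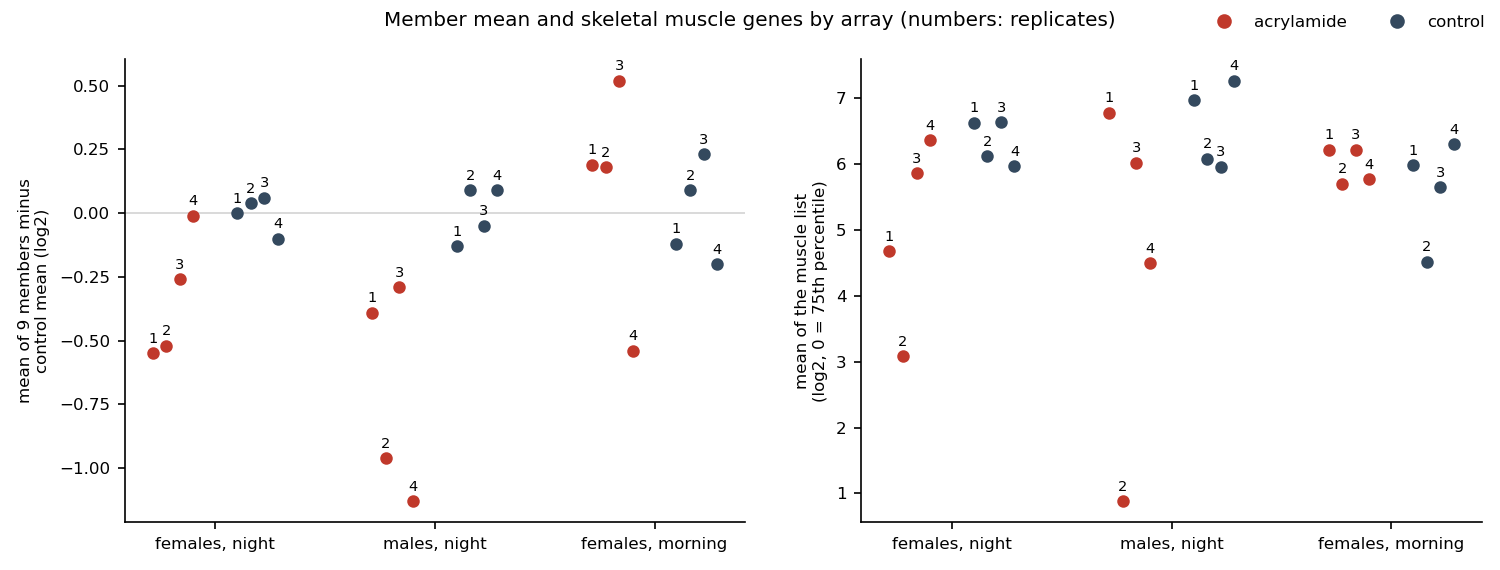
Left, mean over the 9 macrophage genes of each array's difference from the mean of the control arrays of the same sex and time (log2). Right, mean level of the skeletal muscle list (log2, 0 is the array's 75th percentile). Points are arrays with their replicate number, acrylamide in red to the left of control in blue. Acrylamide replicates 2 and 4 of males at night are the lowest for the members at -0.96 and -1.13, and replicate 2 is the lowest for muscle at 0.88.

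In females at night, 8 of 9 members again had a negative difference and none passed the test, as for all genes (0 of 20278, a percentage of 0). The median was -0.26, against 0.03 for all genes, of which 42.2% were negative. Cd209f was at -2.23, -3.10, -1.83 and -1.5 in acrylamide females at night, against -0.88, -1.74, -1.08 and -0.90 in control females. Replicates 1, 2 and 3 with acrylamide lay below all 4 controls, and replicate 4 lay above the lowest control. Its difference was -1.01 (SE 0.38, unadjusted p 0.0151, adjusted p 1), a 2.02-fold lower signal. Lack of overlap in the lower direction was found for 0 of 9 members and 1.33% of all genes.

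The C1q chains had differences of -0.49 (SE 0.31) for C1qc, -0.30 (SE 0.24) for C1qb and -0.26 (SE 0.22) for C1qa in females at night. C1qc was at -0.82, -0.44, -0.49 and 0.20 in acrylamide females, against 0.00, 0.37, 0.16 and -0.13 in control females. Acrylamide replicate 4 was within the control range and the others were below it. Mrc1 differed by -0.40 (SE 0.38), Cd68 by -0.26 (SE 0.27), Cd163 by -0.12 (SE 0.22) and Aif1 by -0.25 (SE 0.28), all with an adjusted p of 1 in limma. Csf1r again had opposite signs, 0.09 (SE 0.22) with the first probe and -0.27 (SE 0.34) with the second. Acrylamide replicates 1 to 4 had 8, 8, 4 and 1 of the 9 members below all controls, with no share over all genes computed. The mean deviation of the members from the control mean was -0.55, -0.52, -0.26 and -0.01 log2 on these arrays. Their muscle list mean was 4.68, 3.08, 5.86 and 6.36, against 5.97 to 6.64 in control females at night. All 7 fibroblast genes were negative (median -0.46, 0 passed). The part of these tissues in the members' differences was not tested. With the muscle and fat means as covariates the members' median was -0.15, and Cd163 turned to 0.04. T cell genes went the other way (8 of 8 positive, median 1.52).

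**Figure D3:**
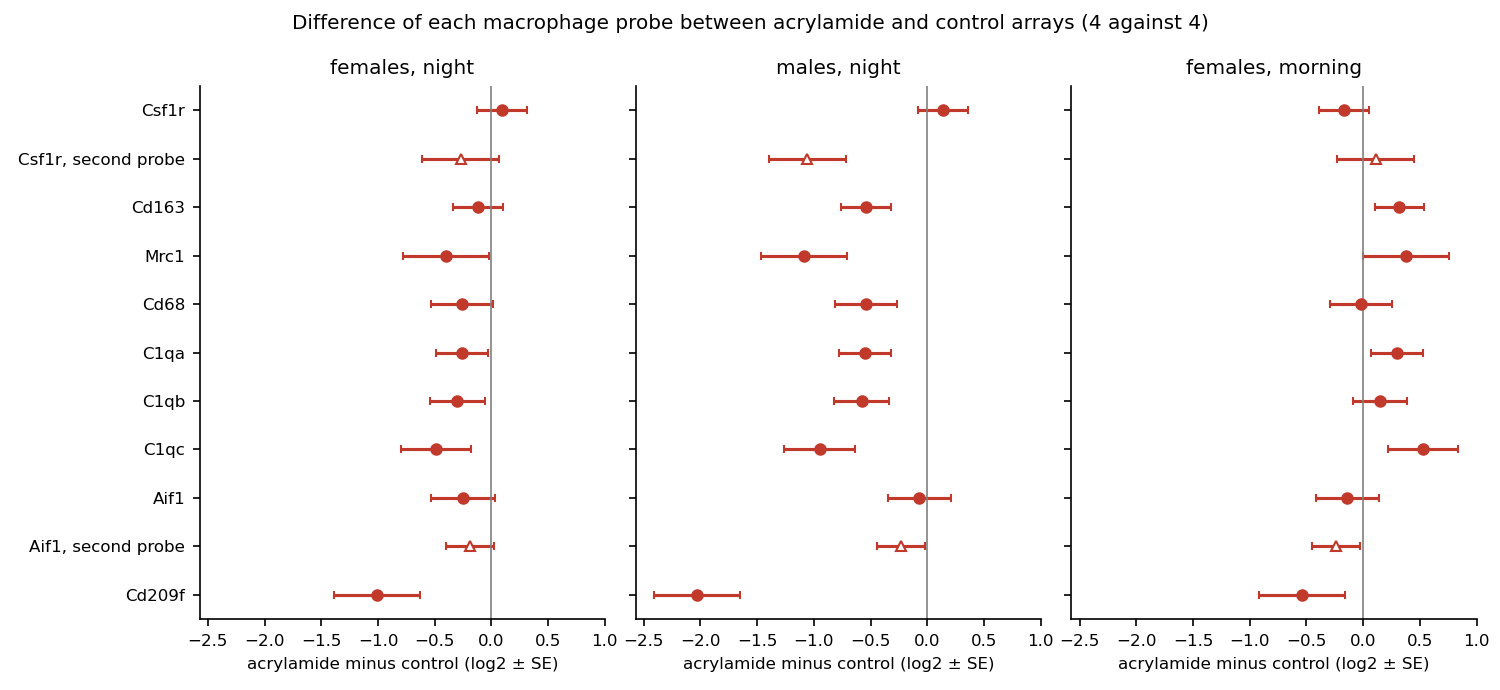
Acrylamide minus control difference of each macrophage probe (log2, points with SE) in night females, night males and morning females, 4 arrays against 4. Triangles are second probes. Most probes are left of 0 in both night panels, with Cd209f farthest at -1.01 and -2.03, and lie on either side of 0 in the morning.

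In females in the morning the members were split, with 5 positive and 4 negative differences and a median of 0.15 (all genes -0.09, 57.8% negative). None of the 9 passed, where 2.23% of all genes did, and none was without overlap, where 8.22% of all genes were. C1qc had the highest difference at 0.53 (SE 0.31, adjusted p 0.312) and Cd209f the lowest at -0.54 (SE 0.38, adjusted p 0.398). C1qc was at -0.34, -0.64, -0.61 and -1.31 in acrylamide females in the morning and at -1.18, -1.27, -0.93 and -1.64 in control females, so replicate 4 with acrylamide was within the control range and the others above it. Cd209f was at -2.41, -2.39, -1.56 and -3.11 with acrylamide and at -1.51, -1.95, -1.73 and -2.14 in controls. Here 3 of the 4 acrylamide arrays were below all controls and replicate 3 was near the highest.

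Cd163 (0.32, SE 0.22), Mrc1 (0.38, SE 0.38), C1qa (0.30, SE 0.22) and C1qb (0.15, SE 0.24) had positive differences in the morning, while Cd68 was at -0.02 (SE 0.27). Aif1 was negative with both probes, at -0.14 (SE 0.28) and -0.24 (SE 0.21), and Csf1r was at -0.17 (SE 0.22) with the first probe and 0.11 (SE 0.34) with the second. One acrylamide array went against the others in the members' mean deviation from the control mean. That deviation was -0.54 log2 in replicate 4, against 0.19, 0.18 and 0.52 in replicates 1, 2 and 3. For the counts on single arrays that follow, the share over all genes was not computed. Replicate 4 had 7 of 9 members below all controls and none above, while replicates 1, 2 and 3 had 5, 3 and 7 of 9 above all controls. The group's spread was accordingly wide, with a median SD of 0.51 over members, against 0.27 in the morning controls. Within the slide that held 2 acrylamide and 3 control arrays, 8 of 9 members were positive (median 0.35), and within the slide that held 2 acrylamide arrays and 1 control array, 5 of 9 were (median 0.02). All 12 follicular genes had a negative difference in the morning (median -1.98), with a list mean of -3.79 in acrylamide replicate 1. All 7 genes of oesophageal epithelium were positive (median 2.64, 1 passed), with list means of 0.83, -1.92, 1.57 and -4.30 on acrylamide replicates 1 to 4, against -4.10 to -2.83 in the morning controls. All 5 cartilage genes were positive (median 1.72, 0 passed), and parathyroid genes had a median of -2.58, with list means of -5.37 and -2.00 on acrylamide replicates 1 and 3. Replicate 3, which had most members above all controls, was thus among the arrays with markers of other tissues, and their part in the members' values was not tested. The median of the members was 0.02 without acrylamide replicate 1, 0.14 without replicate 2, 0.01 without replicate 3 and 0.43 without replicate 4. It was 0.24 without control replicate 3. Without acrylamide replicates 1 and 2 of the morning and replicate 4 of the night males it was -0.01, and C1qb was at -0.06. Without the 2 arrays that went against their labelled sex it was 0.12.

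The differences between strata were tested directly, and no member passed. Males minus females at night gave a median of -0.29 over members (all genes -0.07), with -1.02 (SE 0.54, adjusted p 0.997) for Cd209f. The share of all genes that passed was 0%. With array weights 7 of the 9 members were positive in this comparison, among them C1qc at 0.14, Mrc1 at 0.13 and C1qb at 0.07. Night minus morning in females gave a median of -0.45 (all genes 0.12), with 8 of 9 members negative and 0% of all genes past the threshold. C1qc had the largest difference there, -1.02 (SE 0.44, unadjusted p 0.0331, adjusted p 0.271). For the mean of the 3 acrylamide differences, 0.00493% of all genes passed and no member did. Cd209f came closest at -1.19 (SE 0.22, rank 4 of 20278, adjusted p 0.123 in limma), and the other members lay between -0.37 for Mrc1 and 0.02 for Csf1r. Cd209f was at -1.03 with an adjusted p of 0.033 in limma after normexp background correction. The lowest member adjusted p of limma was 0.446 without acrylamide replicates 1 and 2 of the morning and replicate 4 of night males. It was 0.32 without the 2 arrays that went against their labelled sex and 0.276 with the muscle and fat list means as covariates.

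Control females at night differed from control females in the morning in 5 members: Cd163, C1qa, C1qb and C1qc were higher at night, and the first Csf1r probe was lower. In this comparison 45.1% of all genes passed, 13.5% higher and 31.6% lower, and time cannot be told apart from slide and scan session. Over all genes the median was -0.14, and over the members it was 0.69. C1qc was at 0.00, 0.37, 0.16 and -0.13 at night, against -1.18, -1.27, -0.93 and -1.64 in the morning. These values do not overlap and gave 1.35 (SE 0.31, 2.56-fold, adjusted p 0.00132). C1qb rose by 0.79 (SE 0.24, adjusted p 0.0119), C1qa by 0.69 (SE 0.22, adjusted p 0.0155) and Cd163 by 0.69 (SE 0.22, adjusted p 0.0152). Mrc1 was also without overlap, but its difference of 0.93 had an adjusted p of 0.0514 and turned to -0.42 (adjusted p 0.0784) after normexp, and its probe was well above background on only 2 of the 4 morning arrays. Lack of overlap was found for 5 members in the higher direction (19.7% of all genes) and 1 in the lower (35.5%). Markers of other tissues also differed between these groups. All 8 T cell genes were negative (median -1.90, 2 passed), as were all 5 cartilage genes (median -2.40, 3 passed), while all 4 parathyroid genes were positive (median 1.44, 1 passed), as were all 12 muscle genes (median 0.73, 0 passed). The cartilage list mean was -0.90 in replicate 4 of the morning controls, against -4.84 to -4.44 in the other 3. The parathyroid list mean was -0.29 in replicate 1, against 2.93 to 3.08. Without replicate 1 the same number of members passed, 4 higher and 1 lower, and so it was without replicate 4. The part of these tissues in the result was not tested.

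Csf1r at night was at -2.61, -2.83, -2.49 and -2.88 in control females with the first probe, against -1.54, -1.36, -1.79 and -1.86 in the morning. All night arrays were below all morning arrays, and the difference was -1.06 (SE 0.22, adjusted p 0.000411 in limma). The second probe gave 0.39 (SE 0.34, adjusted p 0.376), with -2.30, -2.11, -1.95 and -2.52 at night and -2.54, -2.42, -2.56 and -2.94 in the morning. The gene therefore has no settled direction between these groups. Aif1 (0.62, adjusted p 0.0724) and Cd209f (0.68, adjusted p 0.158) did not pass, and Cd68 was at 0.00 (SE 0.27). The scan sessions also differed in range, with a saturation value of 779039 for the night females and 65497 or 65496 for the morning females. Saturated spots were found only on the morning arrays, and the part of this in the differences was not tested. Scaling mattered here: the median of all genes was 0.28 in the deposited series matrix, with 57.5% of calls in the higher direction, against 29.9% with the 75th percentile and 16.8% after normexp. The counts of members higher at night were 4 with the 75th percentile over spots, 5 after normexp, 6 with the percentile over probes and 7 in the deposited series matrix or after quantile normalization, with 1 lower under each. Without control replicate 4 of the morning females, which went against its labelled sex, the values were 1.23 for C1qc (adjusted p 0.00656), 0.75 for C1qb (adjusted p 0.0307), 0.62 for C1qa (adjusted p 0.0493) and 0.69 for Cd163 (adjusted p 0.0324).

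**Figure D4:**
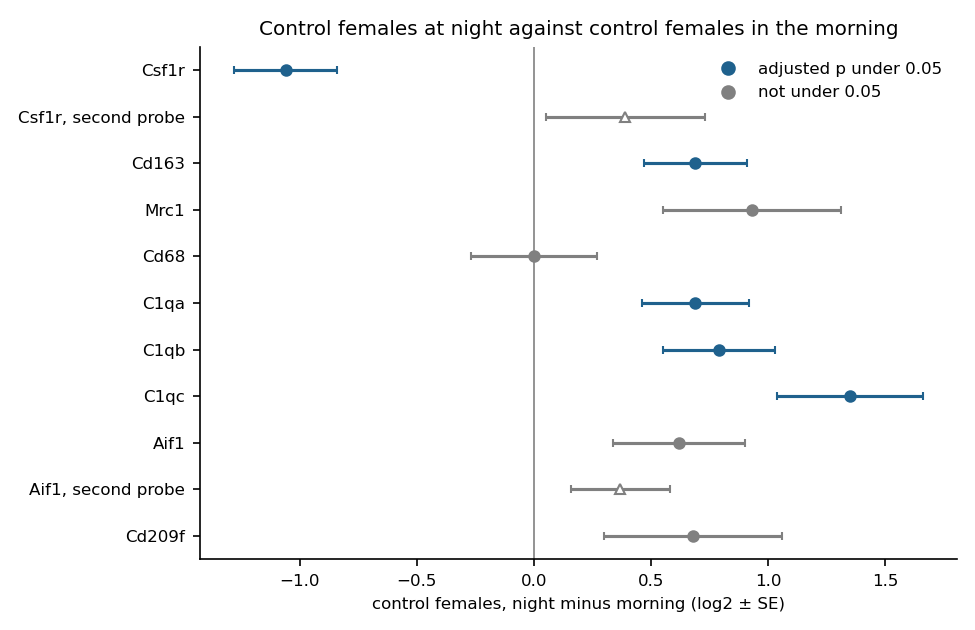
Control females at night minus control females in the morning for each macrophage probe (log2, points with SE, 4 arrays against 4). Blue marks an adjusted p under 0.05 and triangles are second probes. C1qc is farthest to the right at 1.35, and the probes of Csf1r fall on opposite sides of 0 at -1.06 and 0.39.

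In controls at night, males minus females was negative for all 9 members (median -0.16, all genes 0.01) and no member passed, where 0.00986% of all genes did. After normexp 2 of the 9 turned positive, Csf1r and C1qb, both at 0.04. Aif1 was at 0.55, 0.48, -0.64 and 0.41 in control males with the first probe and at 0.89, 1.06, 1.05 and 0.89 in control females. It was the 1 member without overlap (1.61% of all genes in the lower direction), at -0.77 (SE 0.28, adjusted p 1), while its second probe gave -0.14 (SE 0.21). Sex cannot be told apart from slide in this comparison.

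Levels of the members can be ordered over the 6 groups as a description. Across sexes and times the order cannot be told apart from slide, nor across times from scan session. Cd209f averaged -3.35 ± 0.69 in acrylamide males at night and -1.32 ± 0.58 in control males, -2.16 ± 0.69 in acrylamide females at night and -1.15 ± 0.40 in control females, and -2.37 ± 0.63 in acrylamide females in the morning and -1.83 ± 0.27 in control females (SD, n = 4 each). The groups at the low end were the acrylamide groups, and their arrays overlapped with those of their own controls except in males. C1qc was lowest in control females in the morning (-1.25 ± 0.29) and highest in control females at night (0.10 ± 0.22), with acrylamide males at night at -1.0 ± 0.85 near the bottom. The median SD of the members was 0.29, 0.46 and 0.51 in acrylamide night females, night males and morning females, against 0.18, 0.25 and 0.27 in their controls. Over all genes the median SD was 0.23, 0.39 and 0.45 with acrylamide, against 0.18, 0.25 and 0.25 in controls, so the spread over all genes was wider as well. In males at night the SD of the first Csf1r probe was narrower with acrylamide (0.06 against 0.49), as was that of the first Aif1 probe (0.37 against 0.56). The second probes went the other way, at 1.1 against 0.17 for Csf1r and 0.29 against 0.19 for Aif1.

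The members were also compared for how they moved together among arrays of the same group. Each array's deviation from its group mean was taken, and Pearson's r was computed over the 24 arrays as a description, since all genes of an array share its RNA and its scaling. C1qa and C1qb had an r of 0.944, C1qa and C1qc 0.853, and C1qb and C1qc 0.848. The 15 pairs among Cd68, Cd163, Mrc1 and the C1q chains had r from 0.473 to 0.944. Cd209f was looser, with 0.59 to Cd163, 0.457 to C1qa and -0.233 to Aif1. The r of each member with the mean of the others was 0.959 for C1qa, 0.9 for C1qb, 0.816 for Cd163, 0.785 for C1qc, 0.726 for Mrc1, 0.712 for Cd68 and 0.385 for Cd209f.

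The probes of Csf1r and Aif1 parted in this respect. The first Csf1r probe had an r of 0.068 with the other members and the second 0.695, and between the probes r was 0.062. For Aif1 the values were 0.201 with the first probe and 0.66 with the second, and 0.434 between them. In both genes the first probe is a single spot and the second is the mean of a pair of spots. The cause of the gap was not tested.

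**Figure D5:**
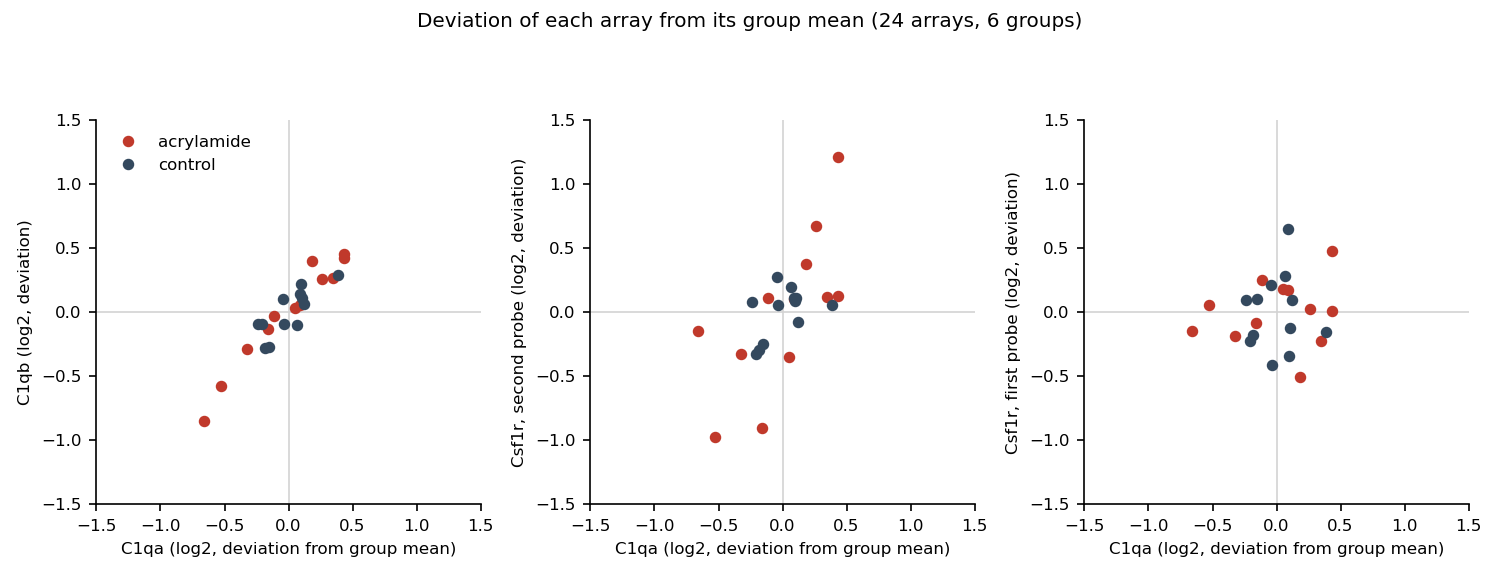
Deviation of each array from the mean of its group (log2) for C1qa on the x axes against C1qb, the second Csf1r probe and the first Csf1r probe on the y axes (24 arrays, acrylamide in red, control in blue). C1qa and C1qb lie along a line (r = 0.944), as does less closely the second Csf1r probe, while the first Csf1r probe shows no such line.

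Of 14260 named genes outside the set, those whose deviations were most like the member mean were Alox5, the enzyme that starts leukotriene synthesis (r = 0.89), Ctss, the lysosomal protease cathepsin S (0.881), Folr2, a folate receptor (0.88), and F13a1, a chain of coagulation factor XIII (0.856). They were followed by Tgfbi (0.854), Lsp1 (0.852), Arl11 (0.84), Ncf4 (0.835), Clec4a1 (0.833) and Aldh1l2 (0.83). Among cell type lists, the fibroblast mean had an r of 0.607 with the member mean and the muscle mean 0.479, while T cells (0.243), endothelium (0.168), fat (0.07) and follicular cells (-0.2) had lower values.

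Other macrophage and monocyte genes were taken from a list of 32, of which 27 were tested. In males at night 25 of the 27 were negative with acrylamide (median -0.43, 0 passed). The lowest p belonged to F13a1 (-1.26, SE 0.39, adjusted p 0.37), Folr2 (-0.62, SE 0.22), Lyz2, which encodes lysozyme (-0.85, SE 0.30), and the scavenger receptor gene Msr1 (-0.99, SE 0.37), the last 3 with an adjusted p of 0.371 in limma. In females at night 22 of the 27 were negative (median -0.19, 0 passed), and in females in the morning 12 were (median 0.05, 0 passed). The list mean on the acrylamide arrays of males at night was -2.35, -2.52, -2.07 and -2.94, against -2.15, -1.98, -1.91 and -1.87 in control males. Replicates 2 and 4 were again the lowest.

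Genes around the members were examined in the same comparisons. Of a list of macrophage growth factor and receptor genes, 5 of 6 were tested and none passed in any stratum. Csf1 was at -0.57 (SE 0.41) and Il34 at -0.01 (SE 0.13) in males at night. Of the partners of C1q, 6 of 7 were tested and none passed. The protease genes C1s and C1r were at -0.72 (SE 0.33) and -0.42 (SE 0.23) in males at night, and Serping1, their inhibitor, at -0.25 (SE 0.19). Of the lectins near Cd209f, the probes of Cd209a and Cd209d were well above background on 0 of 24 arrays and that of Cd209e on 1, while Cd209l1 was on all 24. MHC class II and dendritic cell genes were negative for 6 of 6 genes in males at night (median -0.50, 0 passed), with Cd74 at -0.64 (SE 0.34).

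Between control females at night and in the morning, 5 of the 27 other macrophage genes passed, 3 higher and 2 lower, where 45.1% of all genes did. The fractalkine receptor gene Cx3cr1 fell by 3.93 (SE 0.33, adjusted p 3.66e-09) and the integrin gene Itgam fell by 1.32 (adjusted p 0.000464) at night. Fcgr2b, an inhibitory Fc receptor gene, rose by 1.02 (adjusted p 0.00384), Cd14, a receptor gene for bacterial lipopolysaccharide, by 0.73 (adjusted p 0.0167) and Ctss by 0.72 (adjusted p 0.0175). Of the 5 growth factor and receptor genes tested, Il34, a ligand of Csf1r, rose by 0.90 (adjusted p 5.9e-06), while the receptor genes Csf3r, Csf2rb and Csf2ra fell by 2.47, 2.14 and 0.50 (adjusted p 0.00017, 0.00472 and 0.0403). Of the 6 partners of C1q, C1s rose by 0.97 (adjusted p 0.0221) and Cd93 fell by 0.81 (adjusted p 4.41e-05). The macrophage genes thus moved in both directions between these groups, as did all genes.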

How the data were processed

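Thyroid RNA of 24 samples was measured, 1 array per sample. The scanner software was Agilent Feature Extraction 10.1.1.1, per the file headers. For each spot it gave a processed signal (a linear intensity with the background already removed), mean and background intensities, and flags and annotation in other columns, deposited as scanner output; probe positions are on rn4. The deposited series matrix holds log2 values, which equalled log2 of the processed signal minus a constant that set each column's median to 0 (r = 1 on every array).

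Uneven and outlier spots were removed, log2 of the processed signal was taken, each array's 75th percentile over spots was subtracted, and spots of a probe were averaged. Probes well above background on at least 3 of 4 arrays of a group were kept (23414). Names came from the reference by accession (18349 probes), symbol (2508) or synonym (530). The other 8980 non-control probes kept their array name, which was treated as a gene where the probe was kept. The brightest probe of each gene was fitted in limma 3.58.1 (R 4.3.3, statmod 1.5.0) with 1 mean per group, 18 residual degrees of freedom and Benjamini-Hochberg adjustment over all genes, 2-sided, at 0.05. Second probes were taken from the same fit over all probes kept. The fit was also run on simulated data, and checked there for the acrylamide comparisons of the 3 strata and their mean.

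The members, gene lists and comparisons were chosen with earlier results of these data known. Named genes were the members, the 10 genes most like them and at most 4 genes with the lowest p of each list. The labels do not say whether replicate numbers pair the arrays, and same-numbered night arrays of a slide shared a column. Deviations of same-numbered arrays correlated at -0.228 to 0.354 over 12 pairs, which cannot decide it. The number of arrays, 4 per group, limits precision. Alternatives were other normalizations, filters, terms and left-out arrays.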

Additional observations from a re-analysis of the deposited data

Results flagged for a closer look

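Among 66 sets of 4 arrays (11 probes in 6 groups), 5 had 1 array far from the other 3, with a gap beyond Dixon's critical value for 4 samples; chance gives about 1 in 20. The second Csf1r probe was low at -2.82 in acrylamide replicate 1 of females at night, where the other 3 lay between -2.39 and -2.37. It was low at -2.58 in control replicate 1 of males at night, where the others were at -2.28 to -2.22. C1qb was low at 3.13 in control replicate 4 of females at night, against 3.47 to 3.52 on the others, and high at 2.91 in control replicate 3 of females in the morning, against 2.52 to 2.53. The first Aif1 probe was low at -0.64 in control replicate 3 of males at night, against 0.41 to 0.55. No difference of the acrylamide effect between sexes or times passed its test for any member.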

How the results depend on the processing

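The number of members past the threshold stayed at 0 under all alternatives for acrylamide in night females and morning females, for both tests between strata and for control males against control females. In males at night it was 1 (Cd209f) with the replicate number as a block (-2.03, adjusted p 0.0277 in limma), where a pairing by number is not known. The count ranged from 0 to 1 when single arrays were left out. For the mean of the 3 differences it was 1 (Cd209f) under the replicate block (adjusted p 0.0121) and after normexp (adjusted p 0.033), and 0 to 1 with single arrays left out. It was 1 without acrylamide replicate 3 (adjusted p 0.0425) or replicate 4 (adjusted p 0.0428) of the morning females. Under the remaining alternatives it was 0. For control females, night against morning, it was 5 in the main fit, 5 to 8 under the alternatives and 5 to 6 with single arrays left out. It was 8 in the deposited series matrix, after quantile normalization and with only the arrays compared. With array weights or the percentile over probes, 6 members were higher and 1 lower. After normexp or with no filter on dim probes, 5 were higher and 1 lower.

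Of all member values under all alternatives, 1642 kept direction and side of the threshold, 23 passed it newly and 63 changed sign, none of those past the threshold. Signs turned for Cd163 in females at night with the muscle and fat list means as covariates (0.04), Aif1 in males at night in the series matrix (0.15), and in the morning for Cd68 (array weights 0.06, covariates 0.02, slide as a term 0.12), Mrc1 (normexp, -0.12) and C1qb (-0.06 without acrylamide replicates 1 and 2 of the morning and replicate 4 of the night males). Csf1r was at -0.01 in the mean of the 3 without the 2 arrays that went against their labelled sex. Between the sexes, array weights turned Cd68 (0.01), Mrc1 (0.13), C1qa (0.01), C1qb (0.07) and C1qc (0.14), and leaving out those 3 arrays, or those that went against their labelled sex, turned Cd68 (0.05). Between times Aif1 turned (0.18) without those 3 arrays. For night against morning, Cd68 was at 0.16 with the percentile over probes, 0.42 in the series matrix and 0.15 after quantile normalization, and Mrc1 at -0.42 after normexp. In control males against females, Csf1r and C1qb were at 0.04 after normexp. With single arrays left out, signs turned within these ranges: in males at night for Csf1r (just below 0.00 to 0.35) and Aif1 (-0.35 to 0.07), in the morning for Cd68 (-0.15 to 0.19) and Aif1 (-0.35 to 0.07), and in the mean of the 3 for Csf1r (-0.03 to 0.09). Between the sexes they turned for Cd68 (-0.50 to 0.05), Csf1r (-0.09 to 0.26) and Aif1 (-0.10 to 0.32), and between times for Aif1 (-0.32 to 0.10). For control night against morning they turned for Cd68 (-0.09 to 0.05), and for control males against females for Cd163 (-0.12 to 0.04), Csf1r (-0.26 to 0.10), C1qb (-0.10 to 0.08) and Cd209f (-0.43 to 0.04). The causes were not tested. Over all genes, morning calls numbered 452, but 12 in the series matrix, 965 after quantile normalization and 0 without control replicate 2.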
